A study of Mus musculus with 12 samples.

Results

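Capillary endothelial cells (ECs) of mouse white fat were taken as the cell barcodes with RNA of the endothelial cadherin Cdh5 and the capillary lipase anchor Gpihbp1. They also had little or no RNA of a few chosen genes that mark other vessels or other lineages. Other genes of those lineages were not limited, and their RNA was present in the members, as given below. A barcode was kept when it held 700 to 22000 UMIs (counted RNA molecules), 200 to 6000 genes and under 25% mitochondrial UMIs. A kept barcode was a member when it had at least 1 UMI of Cdh5, at least 1 of Gpihbp1, at most 1 over Gja4, Gja5 and Sox17 together (arterial genes), and 0 of Ackr1 (venous), Prox1 (lymphatic), Ptprc (leukocytes) and Pdgfra (stromal cells). These conditions chose 4936 of 126095 kept cells, 1405 of 57613 in epididymal fat (eWAT) and 3531 of 68482 in inguinal fat (iWAT). The 9 genes of the rule are given only as a description and enter no test.

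Fat capillaries are where circulating triglyceride is broken down and its fatty acids pass to adipocytes. Gpihbp1 carries lipoprotein lipase (Lpl) across the capillary EC to its luminal face, the fatty acid transporter Cd36 takes up the released fatty acids, and the binding proteins Fabp4 and Fabp5 carry them inside the cell. PPARγ is the nuclear receptor that rosiglitazone (Rosi) activates, it binds DNA together with RXR, and fat ECs express it besides adipocytes.

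The study sequenced the stromal vascular fraction (SVF), the cells left when floating adipocytes are removed from digested fat, with 10x Genomics 3′ single-cell libraries. The mice were 12-week-old males in 3 groups. Lean C57BL/6J mice received the methylcellulose vehicle (WT-Veh), Lepob/Lepob mice received vehicle (ob/ob-Veh), and Lepob/Lepob mice received Rosi (ob/ob-Rosi), by gavage in the morning and evening for 3 days at 30 mg/kg. Each depot had 2 mice a group with 1 library each, 12 libraries in all. The labels do not say whether 1 mouse gave both depots, and ob/ob mice lack leptin from birth, so they model 1 genetic form of obesity.

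The libraries held 20132553 to 92475986 UMIs, and the members' own UMIs ranged from 146271 to 5158090 per library. The iWAT library of WT-Veh 1 stood apart, with a median of 1457 UMIs per member against 2029 to 3518 in the other 11 libraries, and 237 of its 657 members had exactly 1 UMI of Gpihbp1. The iWAT library of ob/ob-Veh 1 gave only 47 members. Of the members, 13 barcodes recurred as members of a second library, with at most 5 in any pair of libraries. No doublet caller was run, so a droplet with an EC and another cell stayed among the members unless it had a UMI of Ptprc or Pdgfra.

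In eWAT, members numbered 209 and 199 in the WT-Veh libraries, 104 and 284 with ob/ob-Veh, and 276 and 333 with ob/ob-Rosi. Their share of kept cells was 1.42 and 3.07% with WT-Veh, 1.13 and 3.66% with ob/ob-Veh, and 2.92 and 3.31% with ob/ob-Rosi. The 3 groups overlapped in eWAT, and their means were 2.25 ± 1.17% (SD, n = 2), 2.40 ± 1.79% and 3.12 ± 0.27%. In iWAT the counts were 657 and 402, then 47 and 343, then 1165 and 917, and the shares 3.85 and 4.09% with WT-Veh, 0.652 and 4.76% with ob/ob-Veh, and 12.0 and 5.24% with ob/ob-Rosi. Both iWAT ob/ob-Rosi libraries lay above the other 4, at a mean of 8.64 ± 4.81% against 2.71 ± 2.91% with ob/ob-Veh, a difference of 5.93 percentage points. The two-sided exact permutation test gave p = 0.333 for it, the smallest p that 2 libraries against 2 allow. With every cell thinned to 700 UMIs, ob/ob-Rosi stood at 11.8 and 5.00% and WT-Veh at 2.81 and 5.08%, so these groups overlapped (two-sided exact permutation p = 0.667), while ob/ob-Veh, at 0.375 and 3.93%, stayed below ob/ob-Rosi. Counted over all Cdh5-positive cells without Ptprc and Pdgfra, the same difference was 2.44 points and the groups overlapped. A share can reflect dissociation and loss of other cell types, which was not tested.

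**Figure D1:**
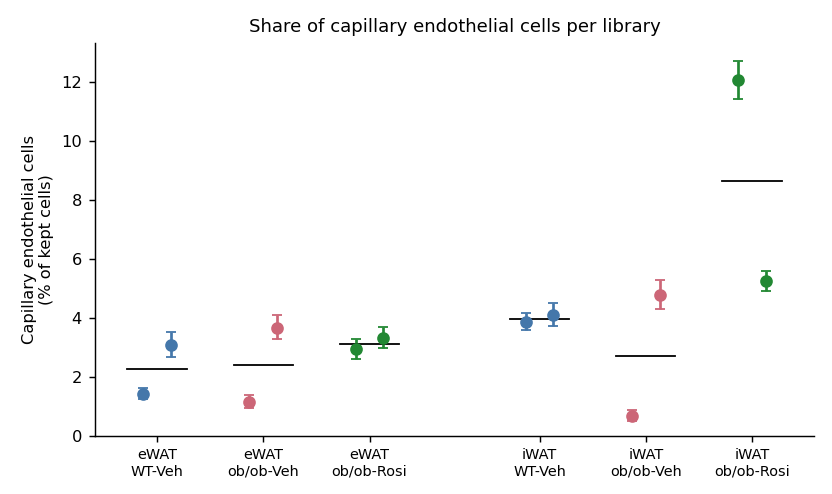
Share of kept cells that met the rule, in percent on the vertical axis, for each of the 12 libraries by depot and group; points are libraries with 95% Wilson intervals, which cover counting error only, and bars are group means. The iWAT ob/ob-Rosi libraries stood at 12.0 and 5.24%, above all others at full depth, while the eWAT groups overlapped.

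The members were checked against capillary markers that the rule did not use. Levels are given as CPM, the UMIs of a gene as a proportion of all member UMIs of a library, scaled to the usual CPM total. The comparison cells, called the other cells below, are the kept cells of the same libraries with no Cdh5 UMI, so they leave out every Cdh5-positive cell that is not a member. Cd36 had a mean of 7300 CPM in the members against 896 in the other cells and 1681 in Cdh5-positive cells that lacked a Gpihbp1 UMI. Rbp7, a retinoid-binding protein of fat capillaries, had 1770 CPM against 33.4 and 145, and Cd300lg, a capillary sialomucin receptor, had 1519 against 31.7 and 135. With each cell thinned to 700 UMIs, which no kept cell fell short of, Cd300lg was seen in 43.4 to 72.4% of members per library and in 0.809 to 5.37% of macrophages (Ptprc and Csf1r positive). Without thinning the shares were 62.3 to 95.2% and 4.41 to 18.9%, at median depths of 1457 to 3518 and 1840 to 6996 UMIs. The cells thus carried the markers of capillary ECs, but these do not set the members apart from the 2540 Cdh5-positive cells with 2 or more UMIs of the arterial genes, where Cd36 was at 7518 CPM, Rbp7 at 2266 and Gpihbp1 at 4061 against 4058 in the members. The arterial limit acts on few molecules, since 13.4 to 40.5% of the members of a library had exactly 1 UMI of those genes. Only 123 cells were venous and 71 lymphatic by the same kind of gate.

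Just inside the Gpihbp1 limit, 4 to 53 members of a library had exactly 1 UMI, and 237 in iWAT WT-Veh 1. Just outside it, 20 to 453 Cdh5-positive cells per library had none. For Cdh5, 8 to 338 members had exactly 1 UMI. The genes with the highest CPM ratio of members to other cells, at 100 CPM or more and outside the rule, were Flt1, a VEGF receptor, at 1263 CPM and 121 times the level of the other cells, then Arhgef15 at 114 times, Sox18 at 112, Ptprb at 112 and Nova2 at 109. Kcna5, Btnl9, Myct1, Robo4 and Thrsp followed at 109 to 100 times. These ratios do not set the members apart from other ECs: in the arterial gate Flt1 was at 1488 CPM, Sox18 at 340 against 290.5 in the members, Ptprb at 1425 against 1232 and Btnl9 at 1086 against 860. Fabp4 was the highest of the lipid genes, with a mean of 50758 CPM in the members and 1974 in the other cells. The leptin receptor Lepr was near 0, at 0 to 1.75 CPM. These ratios describe how the members differ and are no test, because the cells were chosen on endothelial genes.

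RNA of other cell types was also present in the members, and it moved with the groups. A UMI of Lyz2, a macrophage lysozyme, was found in 48.1 to 94.5% of the members of a library. In eWAT the 10 macrophage markers summed to 4302 and 4145 CPM in the WT-Veh libraries, 753 and 1016 with ob/ob-Veh, and 4792 and 5197 with ob/ob-Rosi. Both ob/ob-Veh libraries were low, without overlap, and the other kept cells showed the same order, at 17785 and 17691, 4132 and 6807, and 18704 and 22139 CPM. Of the 10, Ptprc was at 0 by the rule and the other 9 were tested, with 9 lower in ob/ob-Veh than in WT-Veh and 8 higher with Rosi. In iWAT the sums were 2862 and 2558, 1326 and 1009, and 1842 and 3866 CPM, with 5 of 9 markers lower and 4 higher.

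The 7 adipocyte markers ran the other way. They summed in eWAT members to 38.8 and 56.6 CPM with WT-Veh, 1775 and 1380 with ob/ob-Veh, and 33.7 and 27.5 with ob/ob-Rosi, and in iWAT to 231 and 190, 540 and 637, and 96.7 and 143. Here ob/ob-Veh libraries were the high ones in both depots. In eWAT 5 of 6 tested markers were higher in ob/ob-Veh and 6 of 6 lower with Rosi; in iWAT 1 of 7 was higher and 2 lower. The other cells had 21.7 and 29.4 CPM with WT-Veh, 46.0 and 92.3 with ob/ob-Veh and 8.96 and 14.1 with ob/ob-Rosi in eWAT, far below the ob/ob-Veh members. In iWAT they had 146 and 46.5, 21.1 and 38.1, and 14.2 and 17.8 CPM, highest with WT-Veh, where the members were highest with ob/ob-Veh. A level above that of the other cells therefore does not set adipocyte RNA apart, and Cfd, Car3, Cidec and Adipoq all stood above it. Genes named below that stood under the level of the other cells are marked in most cases. The share of such RNA in any single call was not tested.

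**Figure D2:**
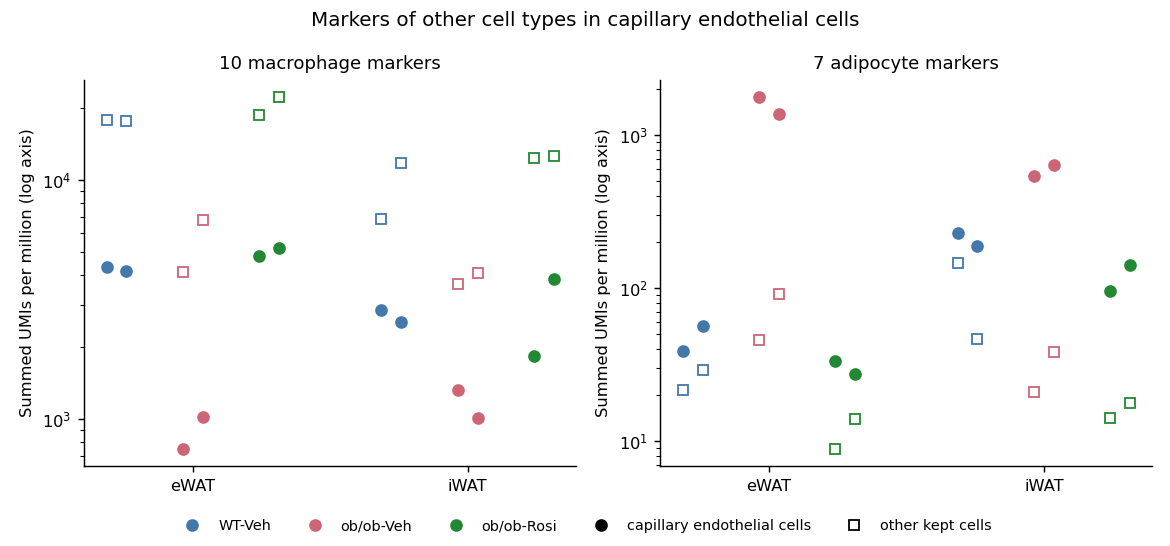
Summed level of 10 macrophage markers and 7 adipocyte markers, as CPM on a log axis, for each library by depot and group; filled points are the capillary endothelial cells and open squares the other kept cells of the same library. Among the members, macrophage RNA was low and adipocyte RNA high in the ob/ob-Veh libraries of both depots, for example 753 and 1016 against 4302 and 4145 CPM for the macrophage sum in eWAT members.

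For the comparisons, the UMIs of the members were summed per library and tested with edgeR across all genes, 2 libraries a group. Calls needed an adjusted p (Benjamini-Hochberg over all genes tested) of at most 0.05 together with a change of at least 1.1-fold. The ob/ob effect (ob/ob-Veh against WT-Veh) in eWAT gave 364 calls of 8572 genes (4.25%), 152 higher (1.77%) and 212 lower (2.47%). The Rosi effect (ob/ob-Rosi against ob/ob-Veh) gave 251 (2.93%), 154 higher (1.8%) and 97 lower (1.13%), and ob/ob-Rosi against WT-Veh gave 49 (0.572%), 19 higher (0.222%) and 30 lower (0.35%). In iWAT the same 3 comparisons gave 176 of 10290 genes (1.71%; 93 higher, 0.904%, and 83 lower, 0.807%), 83 (0.807%; 44 higher, 0.428%, and 39 lower, 0.379%) and 43 (0.418%; 23 higher, 0.224%, and 20 lower, 0.194%). An unadjusted p under 0.05 by edgeR was reached by 1705 and 1389 of 8572 genes in the eWAT ob/ob and Rosi effects. In iWAT 1906 and 1782 of 10290 did. Counts at that level in a gene list are to be read beside these. The libraries compared did not overlap for 98.9% of called genes in the eWAT ob/ob effect and for 100% in every other comparison. A lack of overlap in a called gene is therefore no further result. Both the ob/ob and the Rosi effect share the ob/ob-Veh libraries, so their values are set side by side and opposite signs are not taken as a separate result.

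Many calls were on genes that the other cells expressed at the same level or more. Of the 212 lower calls in the eWAT ob/ob effect, 177 stood at or below the level of the other cells, as did 134 of the 154 higher calls in the eWAT Rosi effect. Above that level there were 129 higher and 35 lower calls in the eWAT ob/ob effect, 20 and 72 in the Rosi effect, and 17 and 28 in ob/ob-Rosi against WT-Veh. The iWAT figures were 67 and 26, 19 and 22, and 19 and 19. Of all genes tested, 59.6% in eWAT and 60.2% in iWAT stood above the other cells. The other cells themselves had 3925 and 3981 calls of 15636 genes for the eWAT ob/ob and Rosi effects and 1579 and 587 of 15222 in iWAT.

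Whether an effect differed between the members and the other kept cells of the same libraries was tested with the library as a block. In eWAT this gave 733 of 15260 genes (4.8%) for the ob/ob effect and 900 (5.9%) for the Rosi effect, and in iWAT 117 of 14605 (0.801%) and 19 (0.13%). The eWAT ob/ob count was 314 without WT-Veh 1, the eWAT Rosi count 497 and 377 without ob/ob-Rosi 1 or 2, and both iWAT counts were 0 without either ob/ob-Veh library. In eWAT the ob/ob calls were 236 upward and 497 downward, and the Rosi calls 605 and 295. Without WT-Veh 1, which is not part of the Rosi effect, they were 181 and 133, and 393 and 542, so the larger side turned in both. Without ob/ob-Rosi 2 the ob/ob calls were 291 and 284. The larger side stayed the same without any other library. Such differences are given below as the effect in the members minus that in the other cells, on the log2 scale. This test had 2 sums from each of 6 libraries and drew the spread of a gene largely from all genes tested. Its p-values therefore do not measure how much that gene varied between the mice of a group. Values of single genes with a library left out are not given for it.

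Single libraries carried many of the calls. In eWAT the ob/ob count was 86 without WT-Veh 1, 160 without WT-Veh 2, and 814 and 752 without either ob/ob-Rosi library. The eWAT Rosi count was 167 to 224 in 5 of the 6 cases and 818 without ob/ob-Rosi 1. The eWAT count of ob/ob-Rosi against WT-Veh was 0 without WT-Veh 1, 8 without WT-Veh 2 and 82 to 123 without any 1 of the other 4. In iWAT the ob/ob count was 4 and 1 without ob/ob-Veh 1 or 2, 39 and 48 without an ob/ob-Rosi library, and 273 and 373 without WT-Veh 1 or 2. The iWAT Rosi count was 0 to 4 without any ob/ob-Veh or ob/ob-Rosi library, and 354 and 595 without WT-Veh 1 or 2. The iWAT count of ob/ob-Rosi against WT-Veh was 0 to 2 without any ob/ob library, 33 without WT-Veh 1 and 342 without WT-Veh 2. Of the calls on genes singled out by rule or after their values were seen, 47 of 105 in the eWAT Rosi effect and 36 of 134 in the eWAT ob/ob effect held with each library left out; in the iWAT ob/ob effect 1 of 113 did, that on Ace, and in the other 3 comparisons none of 33, 54 and 31 did.

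In the lipid-handling genes, Fabp5 and Angptl4 fell in ob/ob-Veh members of both depots while Cd36, Lpl and Fabp4 were not called. Of 16 tested genes of fatty acid uptake in eWAT, 1 was higher and 4 lower in ob/ob-Veh (median log2 difference 0.18, against 0.01 for all genes), and 0 of 20 were higher and 2 lower in iWAT. The Rosi effect called 1 of 16 in eWAT, lower, and 0 of 20 in iWAT at the adjusted threshold, where edgeR gave 5 genes at an unadjusted p under 0.05.

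Fabp5 (chr3:10012548-10016607, GRCm38), a fatty acid-binding protein, stood in eWAT at 4492 and 3582 CPM in the WT-Veh libraries, 914 and 639 in the ob/ob-Veh libraries and 1271 and 1277 in the ob/ob-Rosi libraries. The WT-Veh libraries were high and all 4 ob/ob libraries low, with no overlap. The ob/ob effect was -2.45 ± 0.30 (SE, adjusted p = 4.09e-05) on the log2 scale and held with any library left out. Rosi changed it by 0.75 ± 0.29 (SE, adjusted p = 0.184), which did not pass, and ob/ob-Rosi stayed below WT-Veh at -1.70 ± 0.29 (SE, adjusted p = 0.0103), with adjusted p of 0.236 without WT-Veh 1 and 0.0533 without WT-Veh 2. In iWAT it was at 2594 and 4392 CPM in the WT-Veh libraries, 519.6 and 446 in the ob/ob-Veh libraries and 1925 and 903 in the ob/ob-Rosi libraries, again without overlap between WT-Veh and ob/ob-Veh, and the ob/ob effect was -3.11 ± 0.49 (SE, adjusted p = 0.0167), lost at 0.194 without ob/ob-Veh 1 and 0.201 without ob/ob-Veh 2. In the other eWAT cells Fabp5 also fell and then rose with Rosi, and the Rosi effect in the members differed from theirs by -3.16 ± 0.25 (SE, adjusted p = 3.31e-32). That last p rests largely on a spread shared over genes.

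Angptl4 (chr17:33773750-33781830), a secreted inhibitor of lipoprotein lipase, was at 1614 and 1888 CPM in the WT-Veh libraries, 728 and 531 in the ob/ob-Veh libraries and 339.5 and 835 in the ob/ob-Rosi libraries in eWAT. Both WT-Veh libraries lay above all 4 ob/ob libraries. In eWAT its ob/ob effect was -1.54 ± 0.36 (SE, adjusted p = 0.0158), with adjusted p of 0.139 without WT-Veh 1, 0.140 without WT-Veh 2 and 0.0719 without ob/ob-Veh 2, while ob/ob-Rosi against WT-Veh gave -1.59 ± 0.36 (SE, adjusted p = 0.0442), with 0.323 without WT-Veh 1, 0.485 without WT-Veh 2 and 0.102 without ob/ob-Rosi 1. The iWAT libraries had 1249 and 2129 CPM in the WT-Veh libraries, 403 and 306 in the ob/ob-Veh libraries and 290.4 and 668 in the ob/ob-Rosi libraries, the same order, with an ob/ob effect of -2.52 ± 0.45 (SE, adjusted p = 0.0266) that was lost at 0.243 without ob/ob-Veh 1 and 0.216 without ob/ob-Veh 2. The eWAT ob/ob effect on Angptl4 in the members differed from that in the other cells by -1.26 ± 0.24 (SE, adjusted p = 1.06e-05).

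The lipid droplet coat gene Plin2 (chr4:86648386-86670060) had 1332 and 1424 CPM with WT-Veh, 637 and 444 with ob/ob-Veh and 480.5 and 875 with ob/ob-Rosi in eWAT and 869 and 1471 CPM with WT-Veh, 369 and 366 with ob/ob-Veh and 279 and 428 with ob/ob-Rosi in iWAT. WT-Veh was high without overlap in both depots. Its ob/ob effect was -1.42 ± 0.32 (SE, adjusted p = 0.0146) in eWAT, with 0.153 without WT-Veh 1, 0.114 without WT-Veh 2 and 0.132 without ob/ob-Veh 2, and -1.92 ± 0.38 (SE, adjusted p = 0.0368) in iWAT, with 0.297 without ob/ob-Veh 1, 0.216 without ob/ob-Veh 2, 0.0795 without ob/ob-Rosi 1 and 0.0692 without ob/ob-Rosi 2. In eWAT Plin2 stood below the level of the other cells, at 0.767 times it, and its fall was smaller in the members than in those cells by 1.46 ± 0.25 (SE, adjusted p = 5.33e-07).

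The capillary lipid genes Cd36, Fabp4, Lpl and Pparg were not called in any comparison. Cd36 (chr5:17781690-17888801) was at 7315 and 6293 CPM in the WT-Veh libraries, 7667 and 7744 in the ob/ob-Veh libraries and 5751 and 3524 in the ob/ob-Rosi libraries in eWAT and 9935 and 7596 CPM with WT-Veh, 9011 and 11450 with ob/ob-Veh and 7516 and 3794 with ob/ob-Rosi in iWAT. In each depot both ob/ob-Rosi libraries lay below all other libraries, in iWAT narrowly, at 7516 against 7596 CPM in a WT-Veh library. The lowest of each depot was ob/ob-Rosi 2. No comparison called Cd36, with edgeR adjusted p between 0.211 and 0.985. Fabp4 ranged from 43142 to 62543 CPM in eWAT and from 26895 to 65179 in iWAT, Lpl from 1058 to 2003 and from 962 to 2642, and Pparg from 161 to 302 and from 153 to 316. The WT-Veh and ob/ob-Veh libraries of Fabp4 did not overlap in eWAT and did in iWAT, and those of Pparg overlapped in both. Cd300lg and the transcription factors Meox2 and Tcf15 of fatty acid-transporting ECs were not called either. In the other eWAT cells Cd36 fell by 2.01 on the log2 scale in ob/ob-Veh, and the members differed from that by 1.92 ± 0.26 (SE, adjusted p = 6.24e-11).

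The capillary marker Rbp7 and the glycerol channel Aqp7 were both lowest in ob/ob-Rosi. Rbp7 (chr4:149449687-149454978) was at 4189.6 and 2884 CPM in the WT-Veh libraries, 2133 and 1341 in the ob/ob-Veh libraries and 608 and 924 in the ob/ob-Rosi libraries in eWAT, in 3 steps without overlap. Neither step passed alone, at -1.10 ± 0.32 (SE, adjusted p = 0.0561) and -1.14 ± 0.32 (SE, adjusted p = 0.0622), and ob/ob-Rosi against WT-Veh was -2.24 ± 0.33 (SE, adjusted p = 0.00349), with adjusted p of 0.139 without WT-Veh 1. In iWAT the levels were 2180.2 and 3558 CPM in the WT-Veh libraries, 1026 and 1104 in the ob/ob-Veh libraries and 854 and 434 in the ob/ob-Rosi libraries, also ordered without overlap, and ob/ob-Rosi against WT-Veh gave -2.14 ± 0.44 (SE, adjusted p = 0.0689). In the other eWAT cells the log2 difference of Rbp7 between ob/ob-Rosi and WT-Veh was -1.83, beside -2.24 in the members. Aqp7 (chr4:41033074-41048139) was at 478 and 378 CPM in the WT-Veh libraries, 759.5 and 816 in the ob/ob-Veh libraries and 258 and 194 in the ob/ob-Rosi libraries in eWAT, with ob/ob-Rosi lowest and ob/ob-Veh highest. Its Rosi effect of -1.77 ± 0.30 (SE, adjusted p = 0.00108) held with each library left out and differed from that of the other cells by -1.33 ± 0.28 (SE, adjusted p = 0.000106). In iWAT the ob/ob-Rosi libraries were again lowest, at 324 and 159.8 CPM against 738 and 1162 with ob/ob-Veh, a difference of -1.73 ± 0.41 (SE, adjusted p = 0.0730).

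**Figure D3:**
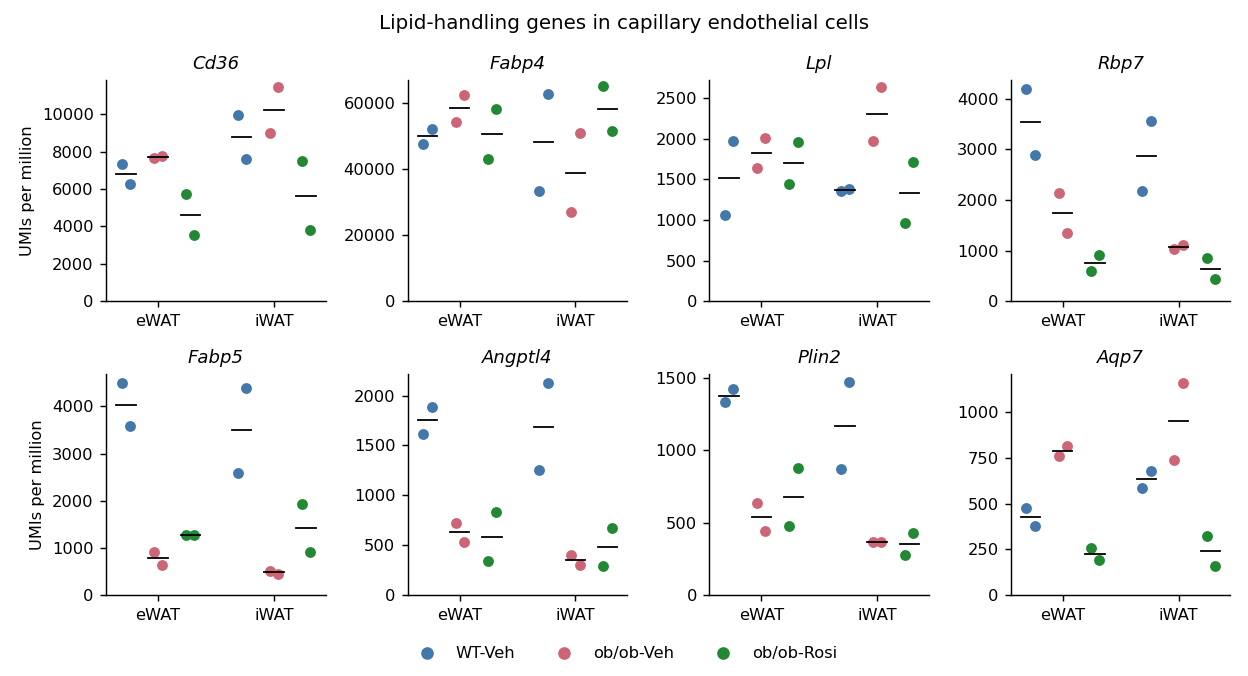
Levels of Cd36, Fabp4, Lpl, Rbp7, Fabp5, Angptl4, Plin2 and Aqp7 in the members, as CPM on linear axes from 0, for each library by depot and group; points are libraries and lines group means. Fabp5, Angptl4 and Plin2 were high in the WT-Veh libraries, and Rbp7 and Aqp7 were lowest in the ob/ob-Rosi libraries. Cd36, Fabp4 and Lpl were not called, with ob/ob-Rosi lowest for Cd36 in both depots.

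Genes listed as PPAR and RXR with their targets gave no higher call with Rosi in the members. In eWAT 0 of 28 tested genes were higher and 5 were lower with Rosi (median log2 difference -0.34, all genes -0.02), and in iWAT 0 of 27 were higher and 0 lower, with 7 at an unadjusted p under 0.05. In the other eWAT cells 10 of 30 were called higher and 4 lower with Rosi (median 0.37). In the other iWAT cells 1 was called higher and 1 lower (median 0.25). The lower genes of the eWAT members included Aqp7, the pyruvate dehydrogenase kinase Pdk4 and the mitochondrial enzyme Hadhb. Pdk4 was at 51.1 and 45.0 CPM in the WT-Veh libraries, 29.5 and 19.97 in the ob/ob-Veh libraries and 6.24 and 4.58 in the ob/ob-Rosi libraries in eWAT. Those ob/ob-Rosi levels of Pdk4 rest on few UMIs, as the members of these libraries held 801207 and 1091316 UMIs in all. The ob/ob-Rosi libraries were low, with a Rosi effect of -2.06 ± 0.52 (SE, adjusted p = 0.0310), lost at 0.0591 without WT-Veh 1, 0.0620 without WT-Veh 2, 0.125 without ob/ob-Veh 1 and 0.187 without ob/ob-Rosi 2, and ob/ob-Rosi against WT-Veh at -3.16 ± 0.48 (SE, adjusted p = 0.00349), lost at 0.139 without WT-Veh 1. In iWAT it was at 78.0 and 67.2 CPM with WT-Veh, 41.0 and 15.7 with ob/ob-Veh and 6.98 and 2.71 with ob/ob-Rosi, and ob/ob-Rosi against WT-Veh was -3.78 ± 0.46 (SE, adjusted p = 0.0100), with 0.0574 without ob/ob-Veh 2, 0.162 without ob/ob-Rosi 1 and 0.104 without ob/ob-Rosi 2. The 2 ob/ob-Rosi libraries lay below the other 4 in each depot.

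Promoter sequence was read for the genes of that list because PPARγ with RXR binds a direct repeat of AGGTCA with 1 base of any kind between the copies. The windows ran from 250 bases before to 50 after each RefSeq gene start (GRCm38.p6), and both strands were searched, allowing up to 2 of the 12 half-site bases to differ. Of 24 list genes with a window, 4 (16.7%) held such a repeat and 0 held one with at most 1 difference. Over all 27025 genes with a window 4.40% held one with up to 2 differences and 0.644% with up to 1. The 4 stretches follow, 5′ to 3′ on the gene's strand with the repeat in capitals, and each has 2 differences. The repeats of the first 3 lie on the opposite strand, so they read as the reverse complement.
Aqp7, chr4:41048172-41048200: ctggaactCCACCTCTGACCTcacaaggg
Cd36, chr5:17835939-17835967: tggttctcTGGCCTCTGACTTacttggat
Plin2, chr4:86670264-86670292: agctttcaGGACCCCTGACCTaagtcaga
Rxra, chr2:27709209-27709237: ctgagtaaTGGTCATAGGCCAgtgggtgg
Of these 4 genes Aqp7 was lower with Rosi in eWAT, Plin2 was lower in ob/ob-Veh of both depots, and Cd36 and Rxra were not called in any of the 6 comparisons. A match describes letters in a window and not binding.

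Other lipid genes that stood above the other cells and fell in eWAT ob/ob-Veh included Scarb1, the receptor for high-density lipoprotein, the lipase Pnpla2 and Srebf1. Scarb1 was at 668 and 804 CPM with WT-Veh, 315 and 417 with ob/ob-Veh and 624 and 753 with ob/ob-Rosi, and its ob/ob effect was -1.07 ± 0.29 (SE, adjusted p = 0.0399), with adjusted p of 0.201 without WT-Veh 1, 0.220 without WT-Veh 2, 0.349 without ob/ob-Veh 1 and 0.104 without ob/ob-Veh 2. Pnpla2 was at 831 and 1645 CPM with WT-Veh, 222 and 403 with ob/ob-Veh and 235 and 921 with ob/ob-Rosi, with -2.03 ± 0.47 (SE, adjusted p = 0.0147) and 0.216 without WT-Veh 2. The caveolar coat gene Cav1 (chr6:17306335-17341452) rose, from 474 and 659 CPM with WT-Veh to 2104 and 1731 with ob/ob-Veh and 1504 and 1268 with ob/ob-Rosi. The 2 WT-Veh libraries were below the other 4. Its ob/ob effect was 1.70 ± 0.29 (SE, adjusted p = 0.00120), lost at 0.0964 without WT-Veh 1, and the iWAT values of 462 and 653, 1880.1 and 1706 and 1851 and 1086 CPM kept that order with 1.43 ± 0.39 (SE, adjusted p = 0.0841).

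Of 13 tested genes of junctions and caveolae, 4 were higher and 3 lower in eWAT ob/ob-Veh, and the Rosi effect called 2 higher and 1 lower. In iWAT 0 were higher and 1 lower in ob/ob-Veh, and 1 was higher and 0 lower with Rosi. Cavin1 and Cav2 rose beside Cav1 and Gja1, while Plvap, Cldn5 and Ehd4 fell, the last a gene below the level of the other cells. The calls on Cav2 and Gja1 were lost without any 1 of the 4 libraries compared, at adjusted p of 0.0551 to 0.306. Cavin1, which coats caveolae with Cav1, was at 962 and 1103 CPM with WT-Veh, 2537 and 2209.9 with ob/ob-Veh and 1005 and 641 with ob/ob-Rosi, with an ob/ob effect of 1.14 ± 0.29 (SE, adjusted p = 0.0278), lost at 0.289 without WT-Veh 1, 0.177 without WT-Veh 2, 0.195 without ob/ob-Veh 1 and 0.0513 without ob/ob-Veh 2, and a Rosi effect of -1.50 ± 0.29 (SE, adjusted p = 0.00464) that held with each library left out.

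Plvap (chr8:71497765-71511752), which forms the diaphragms of capillary fenestrae, was at 168 and 109 CPM in the WT-Veh libraries, 31.7 and 20.8 in the ob/ob-Veh libraries and 148 and 199 in the ob/ob-Rosi libraries in eWAT. The ob/ob-Veh libraries were low and did not overlap either group. The ob/ob effect was -2.54 ± 0.38 (SE, adjusted p = 0.000409) and the Rosi effect 2.85 ± 0.37 (SE, adjusted p = 7.86e-05), and both held with each library left out. In iWAT the levels were 127 and 96.5 CPM in the WT-Veh libraries, 636 and 204 in the ob/ob-Veh libraries and 263 and 83.4 in the ob/ob-Rosi libraries, where the ob/ob-Veh libraries were not low, and neither effect passed (1.55 ± 0.56 (SE, adjusted p = 0.168) and -0.90 ± 0.55 (SE, adjusted p = 0.421)). The iWAT effect minus the eWAT effect was 4.14 ± 0.80 (SE, adjusted p = 0.212) for ob/ob and -3.85 ± 0.79 (SE, adjusted p = 0.314) for Rosi, so a difference between depots did not pass.

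Cldn5 (chr16:18776847-18778262), the claudin of endothelial tight junctions, was at 4508 and 3103 CPM in the WT-Veh libraries, 1609.6 and 1460.5 in the ob/ob-Veh libraries and 1623 and 2018 in the ob/ob-Rosi libraries in eWAT. WT-Veh was high without overlap, and the ob/ob effect of -1.38 ± 0.29 (SE, adjusted p = 0.00816) was lost at 0.239 without WT-Veh 1 and 0.0626 without ob/ob-Veh 2. Rosi left it at 0.29 ± 0.29 (SE, adjusted p = 0.680). In iWAT it was at 1993 and 2514 CPM in the WT-Veh libraries, 451 and 529 in the ob/ob-Veh libraries and 1323 and 2917 in the ob/ob-Rosi libraries, with ob/ob-Veh low, an ob/ob effect of -2.44 ± 0.45 (SE, adjusted p = 0.0271) and a Rosi effect of 2.34 ± 0.44 (SE, adjusted p = 0.0429). Those were lost at 0.279 without ob/ob-Veh 1 and 0.203 without ob/ob-Veh 2 and at 0.363 without ob/ob-Veh 1, 0.219 without ob/ob-Veh 2, 0.0882 without ob/ob-Rosi 1 and 0.370 without ob/ob-Rosi 2.

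Tmem252 (chr19:24674008-24682233), which encodes a membrane protein, moved with both obesity and Rosi in both depots. It was at 279.9 and 193 CPM in the WT-Veh libraries, 20.4 and 15.2 in the ob/ob-Veh libraries and 428 and 874 in the ob/ob-Rosi libraries in eWAT and 127 and 84.6 CPM with WT-Veh, 27.4 and 7.23 with ob/ob-Veh and 413 and 539.6 with ob/ob-Rosi in iWAT. In both depots ob/ob-Veh was lowest and ob/ob-Rosi highest, with no overlap between any 2 groups. The eWAT effects of -3.86 ± 0.44 (SE, adjusted p = 1.66e-05) for ob/ob and 5.30 ± 0.45 (SE, adjusted p = 1.68e-07) for Rosi held with each library left out. In iWAT they were -3.47 ± 0.54 (SE, adjusted p = 0.0167) and 5.63 ± 0.53 (SE, adjusted p = 0.000693), with 0.0811 without ob/ob-Veh 1 and 0.241 without ob/ob-Veh 2 for the first and 0.174 without ob/ob-Veh 2 for the second. The other eWAT cells, at 0.104 to 6.32 CPM, moved in the same direction, and the effect did not differ from theirs by the test (0.14 ± 0.36 (SE, adjusted p = 0.985) and -0.22 ± 0.40 (SE, adjusted p = 0.920)). Those cells can include ECs in which no Cdh5 UMI was caught.

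Npr3, Tspan7, Rgs5, Cd200, Nxpe4 and Ctla2a are named because they were called in both depots, a choice made after their values were seen. Npr3 (chr15:11839896-11907287), the clearance receptor for natriuretic peptides, was at 351 and 453 CPM in the WT-Veh libraries, 489.7 and 344 in the ob/ob-Veh libraries and 77.4 and 107 in the ob/ob-Rosi libraries in eWAT and 526 and 602 CPM with WT-Veh, 376 and 440.1 with ob/ob-Veh and 93.1 and 112 with ob/ob-Rosi in iWAT. The ob/ob-Rosi libraries were low in both depots without overlap. The Rosi effect was -2.12 ± 0.32 (SE, adjusted p = 0.000365) in eWAT, held with each library left out, and -1.75 ± 0.31 (SE, adjusted p = 0.0369) in iWAT, lost at 0.265 without ob/ob-Veh 1, 0.227 without ob/ob-Veh 2, 0.166 without ob/ob-Rosi 1 and 0.331 without ob/ob-Rosi 2. Ctla2a, a cathepsin inhibitor, was the reverse, at 1091 and 1184 CPM with WT-Veh, 734 and 879.7 with ob/ob-Veh and 1984 and 2793 with ob/ob-Rosi in eWAT and 382 and 749.8 CPM with WT-Veh, 376 and 487 with ob/ob-Veh and 2315 and 2246 with ob/ob-Rosi in iWAT, with ob/ob-Rosi high. Its Rosi effect was 1.61 ± 0.29 (SE, adjusted p = 0.00207), held with each library left out, and 2.63 ± 0.42 (SE, adjusted p = 0.0276), lost at 0.312 without ob/ob-Veh 1, 0.218 without ob/ob-Veh 2, 0.117 without ob/ob-Rosi 1 and 0.201 without ob/ob-Rosi 2.

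Tspan7 (chrX:10485158-10596605), a tetraspanin, was at 67.4 and 106 CPM in the WT-Veh libraries, 515 and 535 in the ob/ob-Veh libraries and 333 and 374 in the ob/ob-Rosi libraries in eWAT and 76.6 and 89.6 CPM with WT-Veh, 431 and 530.5 with ob/ob-Veh and 394 and 329.7 with ob/ob-Rosi in iWAT. The WT-Veh libraries were low and all ob/ob libraries high in both depots. Its ob/ob effect was 2.52 ± 0.31 (SE, adjusted p = 4.33e-05) in eWAT, held with each library left out, and 2.30 ± 0.32 (SE, adjusted p = 0.0113) in iWAT, lost at 0.0811 without ob/ob-Veh 1 and 0.201 without ob/ob-Veh 2. Cd200, which binds an inhibitory receptor on myeloid cells, was at 87.8 and 91.4 CPM with WT-Veh, 231 and 274 with ob/ob-Veh and 257 and 183 with ob/ob-Rosi and 72.3 and 72.2 CPM with WT-Veh, 458 and 470.2 with ob/ob-Veh and 332 and 268 with ob/ob-Rosi, with WT-Veh low. Its ob/ob effects were 1.43 ± 0.30 (SE, adjusted p = 0.00798), lost at 0.138 without WT-Veh 1, 0.118 without WT-Veh 2 and 0.0738 without ob/ob-Veh 2, and 2.43 ± 0.31 (SE, adjusted p = 0.00702), lost at 0.0811 without ob/ob-Veh 1 and 0.191 without ob/ob-Veh 2. By the edgeR test with the library as a block, the 2 genes differed from the other cells in iWAT, by 2.01 ± 0.36 (SE, adjusted p = 0.0177) and 2.56 ± 0.35 (SE, adjusted p = 0.00573), and did not in eWAT. As given above, the iWAT calls of that test were lost without either ob/ob-Veh library.

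Rgs5 (chr1:169655501-169695813), a regulator of G-protein signalling known from pericytes, was at 55.1 and 60.5 CPM in the WT-Veh libraries, 644 and 662 in the ob/ob-Veh libraries and 293 and 199.8 in the ob/ob-Rosi libraries in eWAT and 62.3 and 103 CPM with WT-Veh, 328 and 319.5 with ob/ob-Veh and 283 and 497 with ob/ob-Rosi in iWAT. WT-Veh was low without overlap in both. The eWAT ob/ob effect of 3.43 ± 0.33 (SE, adjusted p = 1.12e-06) held with each library left out and exceeded that of the other cells by 1.31 ± 0.29 (SE, adjusted p = 0.000306). The eWAT Rosi effect of -1.38 ± 0.29 (SE, adjusted p = 0.00860) was lost at 0.0652 without ob/ob-Rosi 2. The iWAT ob/ob effect was 1.72 ± 0.37 (SE, adjusted p = 0.0459), lost at 0.0906 without WT-Veh 1, 0.290 without ob/ob-Veh 1, 0.247 without ob/ob-Veh 2, 0.0820 without ob/ob-Rosi 1 and 0.0705 without ob/ob-Rosi 2. The 8 mural markers, of which Rgs5 is 1, summed to 278 and 290, 830 and 884, and 535 and 352 CPM in eWAT. Rgs5 alone gave 644 and 662 CPM of the ob/ob-Veh sums and 55.1 and 60.5 of the WT-Veh sums. The rise of the sum is therefore not separate from that of Rgs5. Of 6 tested Rgs5 was the 1 that was called, and the median log2 ob/ob difference of the 6 was 0.10.

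**Figure D4:**
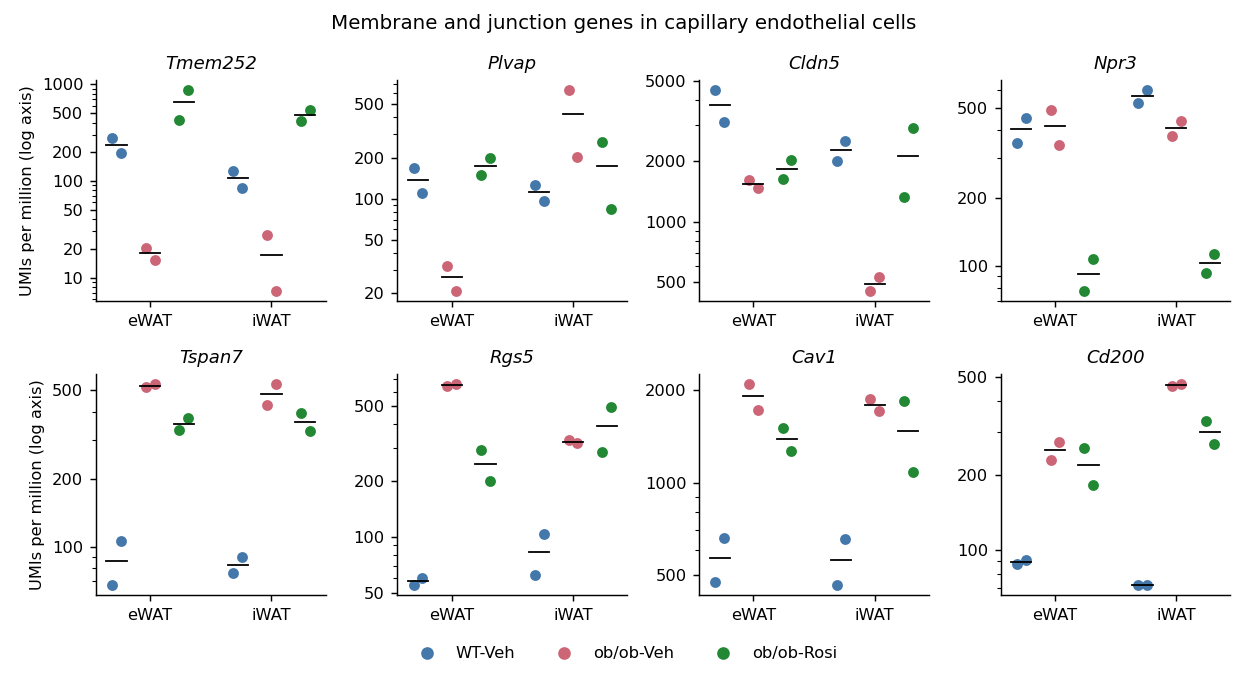
Levels of Tmem252, Plvap, Cldn5, Npr3, Tspan7, Rgs5, Cav1 and Cd200 in the members, as CPM on log axes, for each library by depot and group; points are libraries and lines group means. Tmem252 fell in ob/ob-Veh and rose with Rosi in both depots, Plvap did so in eWAT and was not called in iWAT, Npr3 was lowest with ob/ob-Rosi, and Tspan7, Rgs5 and Cd200 were lowest with WT-Veh.

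The genes called the same way in both depots numbered 80 for the ob/ob effect (30 higher and 50 lower), which is 22.2% of the eWAT calls and 50.3% of the iWAT calls among genes tested in both. For the Rosi effect they were 37 (22 higher and 15 lower), 14.98% and 52.9%. For ob/ob-Rosi against WT-Veh they were 18 (10 higher and 8 lower), 37.5% and 43.9%, and none of the 3 comparisons had a gene called in opposite directions. Genes of other cell types were among those shared. The macrophage markers Lyz2, Cd68, Tyrobp, Trem2 and Gpnmb were shared lower ob/ob genes, and the first 4 of them shared higher Rosi genes. The adipocyte marker Cfd was a shared higher ob/ob gene, and Cfd and Car3 were shared lower Rosi genes. The part of such RNA in the agreement of the depots was not tested. The higher ob/ob genes included the ephrin Efnb2, at 1.75 in eWAT and 1.77 in iWAT, and the collagen-binding integrin Itga1, at 1.54 and 1.45. In eWAT both were lost without WT-Veh 1 (0.133 to 0.136) and WT-Veh 2 (0.118 to 0.146), and in iWAT without ob/ob-Veh 1 (0.194 to 0.299) and ob/ob-Veh 2 (0.206 to 0.282), among others. Efnb2 is also an arterial marker, the 1 called of the 3 tested in each depot. Of the 7 arterial markers, Gja4, Gja5 and Sox17 were limited by the rule that chose the members. Hey1, Bmx and Fbln5, which the rule did not use, summed to 81.7 and 68.2 CPM in eWAT WT-Veh and 107 and 85.5 in ob/ob-Veh, and in iWAT to 80.2 and 63.5 and to 129.9 and 118, on 19 to 112 UMIs a library. Those sums were higher in ob/ob-Veh without overlap in both depots, and their part in the Efnb2 difference was not tested.

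The direct comparison of ob/ob-Rosi with WT-Veh asks which genes differed from the lean level under treatment, whether obesity or Rosi had moved them. Its 18 genes called in both depots included Cd34, Col28a1, Fam102b, Pdlim1, Pfkfb3, Rgs5, Rsad2, Stxbp6, Tmem88 and Tspan7, higher, and Fads3, Fam213a, Lipg, Npr3, Pdk4, Slit3 and Smad6, lower. Of these, Slit3 stood below the level of the other cells in both depots, and Fam102b and Stxbp6 did in iWAT. Cd34, a sialomucin of ECs and progenitors that stood at 1.36 times the other cells' level in eWAT and 0.533 times it in iWAT, was at 75.6 and 193 CPM with WT-Veh, 197 and 203 with ob/ob-Veh and 484 and 456 with ob/ob-Rosi in eWAT and 87.3 and 78.4 CPM with WT-Veh, 294 and 217 with ob/ob-Veh and 453 and 290.5 with ob/ob-Rosi in iWAT. WT-Veh and ob/ob-Rosi did not overlap, with differences of 1.77 ± 0.34 (SE, adjusted p = 0.0175), lost at 0.367 without WT-Veh 1, and 2.17 ± 0.33 (SE, adjusted p = 0.0228), lost at 0.0939 without ob/ob-Veh 1, 0.105 without ob/ob-Veh 2, 0.225 without ob/ob-Rosi 1 and 0.104 without ob/ob-Rosi 2. Lipg, the endothelial lipase, was at 77.6 and 25.7 CPM with WT-Veh, 24.9 and 7.99 with ob/ob-Veh and 4.99 and 1.83 with ob/ob-Rosi and 80.9 and 42.9 CPM with WT-Veh, 123 and 24.1 with ob/ob-Veh and 7.37 and 1.55 with ob/ob-Rosi, with ob/ob-Rosi low, and differed by -3.92 ± 0.70 (SE, adjusted p = 0.0126) and -3.62 ± 0.67 (SE, adjusted p = 0.0418). The eWAT ob/ob-Rosi levels of Lipg rest on few UMIs. In eWAT its call was lost at 0.372 without WT-Veh 1, and in iWAT at 0.0585 without WT-Veh 1, 0.0921 without ob/ob-Veh 1, 0.105 without ob/ob-Veh 2, 0.201 without ob/ob-Rosi 1 and 0.291 without ob/ob-Rosi 2. None of the 33 named eWAT calls and none of the 31 in iWAT held with each library left out.

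**Figure D5:**
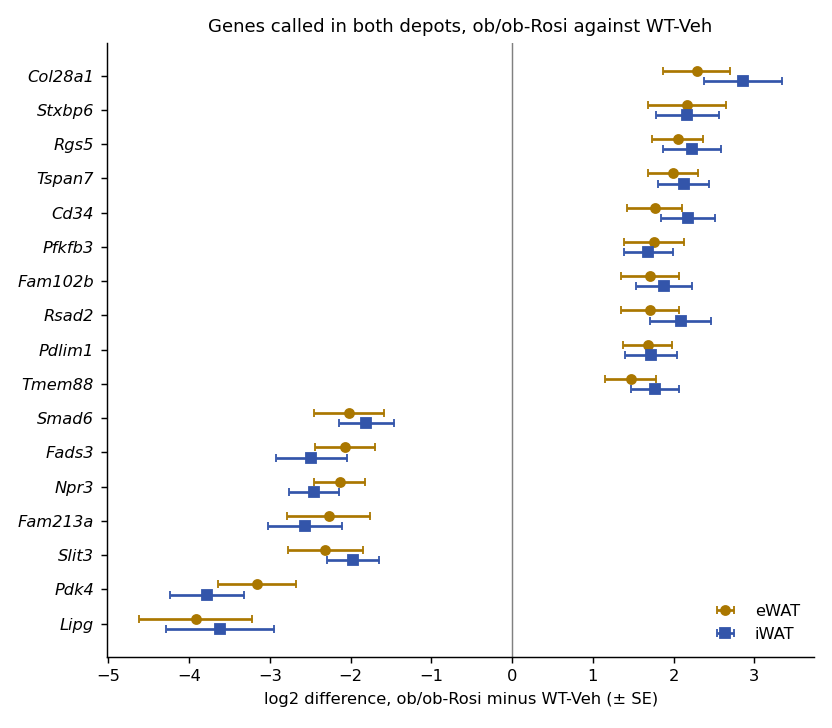
Log2 difference of ob/ob-Rosi from WT-Veh, with its SE, for 17 of the 18 genes called in both depots; each gene has 1 point for eWAT and 1 for iWAT, and 0 is the level of lean mice. The 10 higher genes lie to one side in both depots and the 7 lower genes shown to the other, with Pdk4 at -3.16 in eWAT and -3.78 in iWAT.

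Receptors and regulators of vessel growth gave 1 call per depot in the ob/ob effect. Of 20 tested genes of VEGF, angiopoietin and Notch signalling in eWAT, 1 was higher in ob/ob-Veh (Plxnd1), with 18 above 0 (median 0.80) and 11 at an unadjusted p under 0.05, and 0 were called with Rosi, against 7 at that level. In iWAT 1 of 21 was higher (the angiopoietin receptor Tek), with 15 above 0 (median 0.83) and 10 at an unadjusted p under 0.05, and 0 were called with Rosi, against 7 at that level. The VEGF receptor Kdr was at 815 and 1296 CPM with WT-Veh, 1075 and 1270.4 with ob/ob-Veh and 710.2 and 671 with ob/ob-Rosi in eWAT and 980.2 and 1429.9 CPM with WT-Veh, 2181 and 1986 with ob/ob-Veh and 908 and 841 with ob/ob-Rosi in iWAT, and Flt1 at 1152 and 771 CPM with WT-Veh, 1562 and 1318 with ob/ob-Veh and 1324 and 983 with ob/ob-Rosi and 809.8 and 683 CPM with WT-Veh, 2256 and 1911 with ob/ob-Veh and 1235 and 1145 with ob/ob-Rosi. Kdr and Flt1 were highest in the ob/ob-Veh libraries of iWAT, but neither passed there (0.54 ± 0.36 (SE, adjusted p = 0.451) and 1.22 ± 0.35 (SE, adjusted p = 0.0974)). Tek was at 77.3 and 84.6 CPM with WT-Veh, 274 and 233 with ob/ob-Veh and 172 and 130.3 with ob/ob-Rosi in iWAT, with 1.37 ± 0.31 (SE, adjusted p = 0.0474), and was lost with any 1 library left out, at adjusted p of 0.05 (rounded, without WT-Veh 2) to 0.299 (without ob/ob-Veh 1).

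Of the 24 genes of endothelial identity, 1 was higher and 2 lower in eWAT ob/ob-Veh, and 3 were higher and 1 lower with Rosi. The lower gene was the transcription factor Sox18, at 296 and 184 CPM with WT-Veh, 426 and 449 with ob/ob-Veh and 139.8 and 169 with ob/ob-Rosi, where ob/ob-Rosi was lowest and ob/ob-Veh highest. Its Rosi effect of -1.46 ± 0.31 (SE, adjusted p = 0.00953) held with each library left out. Btnl9, a butyrophilin-like surface gene, was at 1095 and 951 CPM with WT-Veh, 1360.2 and 861 with ob/ob-Veh and 458 and 242 with ob/ob-Rosi, with ob/ob-Rosi low and a Rosi effect of -1.64 ± 0.33 (SE, adjusted p = 0.00673), lost at 0.0804 without ob/ob-Veh 1 and 0.0508 without ob/ob-Rosi 2. In the sprouting list 2 of 15 were higher in eWAT ob/ob-Veh and 0 were called with Rosi, and in iWAT 1 of 16 was higher and 1 lower in ob/ob-Veh. With Rosi in iWAT 14 of 16 had a difference above 0 (median 1.00), 9 were at an unadjusted p under 0.05 and 1, Trp53i11, was called higher. The other iWAT cells moved the same way on this list, with 15 of 16 above 0 (median 1.25). With cells thinned to 700 UMIs, an Apln UMI was seen in 0.292 to 2.13% of members per library and 2 or more UMIs over 8 mitotic genes in 0 to 0.962%.

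The transcription factor Tbx3 was at 63.3 and 103 CPM with WT-Veh, 211 and 135 with ob/ob-Veh and 36.2 and 57.7 with ob/ob-Rosi in eWAT and 32.2 and 80.3 CPM with WT-Veh, 191 and 309 with ob/ob-Veh and 47.3 and 30.6 with ob/ob-Rosi in iWAT. The ob/ob-Rosi libraries were the lowest of each depot except that iWAT WT-Veh 1 lay at the level of ob/ob-Rosi. The Rosi effect was -1.79 ± 0.35 (SE, adjusted p = 0.00490) in eWAT, held with each library left out, and -2.47 ± 0.43 (SE, adjusted p = 0.0345) in iWAT, lost at 0.255 without ob/ob-Veh 1, 0.271 without ob/ob-Veh 2, 0.142 without ob/ob-Rosi 1 and 0.370 without ob/ob-Rosi 2.

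Of 29 tested interferon-response genes, 4 rose in ob/ob-Veh and 6 fell with Rosi in eWAT, and 5 rose and 1 fell in iWAT. In eWAT 27 of 29 tested genes had a log2 ob/ob difference above 0 (median 0.95), with 4 called higher and 0 lower, and 26 of 29 had a Rosi difference below 0 (median -0.81), with 6 called lower. In iWAT 27 of 29 were above 0 (median 0.73), with 5 called higher, and 24 below 0 with Rosi (median -0.68), with 1 called. Over all genes tested, 50.8% and 46.6% had an ob/ob difference above 0 in eWAT and iWAT, and 51.6% and 48.4% a Rosi difference below 0. The other cells moved the same way, with 22 and 23 of 30 above 0 for ob/ob (medians 0.42 and 0.77) and 25 and 26 below 0 for Rosi (medians -0.83 and -0.97). Rsad2, an antiviral enzyme, was at 55.1 and 65.6 CPM with WT-Veh, 236 and 202 with ob/ob-Veh and 287 and 124 with ob/ob-Rosi in eWAT and 45.1 and 79.7 CPM with WT-Veh, 389.7 and 307 with ob/ob-Veh and 335 and 191 with ob/ob-Rosi in iWAT. WT-Veh was low and ob/ob-Rosi stayed high, with ob/ob effects of 1.78 ± 0.36 (SE, adjusted p = 0.00669) and 2.21 ± 0.39 (SE, adjusted p = 0.0264), lost in eWAT at 0.146 without WT-Veh 1 and 0.0949 without WT-Veh 2 and in iWAT at 0.229 without ob/ob-Veh 1 and 0.201 without ob/ob-Veh 2. Gbp4, a guanylate-binding protein, was at 63.3 and 68.2 CPM with WT-Veh, 102 and 102 with ob/ob-Veh and 43.7 and 31.2 with ob/ob-Rosi and 50.8 and 59.7 CPM with WT-Veh, 150.4 and 164 with ob/ob-Veh and 52.3 and 41.5 with ob/ob-Rosi, with ob/ob-Veh highest, and its Rosi effects were -1.42 ± 0.32 (SE, adjusted p = 0.0143) and -1.50 ± 0.30 (SE, adjusted p = 0.0466). In eWAT it was lost at 0.0549 without ob/ob-Veh 1, 0.0677 without ob/ob-Veh 2 and 0.0965 without ob/ob-Rosi 2, and in iWAT at 0.314 without ob/ob-Veh 1, 0.279 without ob/ob-Veh 2, 0.149 without ob/ob-Rosi 1 and 0.406 without ob/ob-Rosi 2.

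Cxcl9 (chr5:92321347-92328079), an interferon-induced chemokine for T cells, was at 125 and 183 CPM in the WT-Veh libraries, 326 and 292 in the ob/ob-Veh libraries and 87.4 and 66.9 in the ob/ob-Rosi libraries in eWAT. The ob/ob-Veh libraries were highest and the ob/ob-Rosi libraries lowest, with no overlap between any 2 groups. The Rosi effect of -1.97 ± 0.30 (SE, adjusted p = 0.000443) held with each library left out and differed from that of the other cells by -3.16 ± 0.25 (SE, adjusted p = 4.59e-33). The second p rests largely on a spread shared over genes and does not measure how Cxcl9 varied between mice. In iWAT the levels were 64.4 and 253, 178 and 307 and 166 and 141 CPM, where the WT-Veh libraries overlapped both other groups and nothing passed. The adhesion molecule Vcam1, at 0.341 times the level of the other cells, had 36.8 and 111 CPM with WT-Veh, 2.27 and 15.2 with ob/ob-Veh and 8.74 and 33.0 with ob/ob-Rosi in eWAT, with an ob/ob effect of -2.83 ± 0.59 (SE, adjusted p = 0.00771), lost at 0.266 without WT-Veh 2, and Icam1 was not called. Of 15 tested genes of leukocyte adhesion and chemokines in eWAT, 0 were higher and 2 lower in ob/ob-Veh.

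Of 18 tested vasoactive and coagulation genes in eWAT, 0 were higher and 1, Nostrin, was lower in ob/ob-Veh, and 1, Plat, was lower with Rosi. In iWAT, 3 of 20 vasoactive and coagulation genes were higher in ob/ob-Veh and lower with Rosi, the thrombomodulin gene Thbd, the plasminogen activator Plat and the angiotensin-converting enzyme Ace. Thbd was at 71.6 and 59.7 CPM in the WT-Veh libraries, 369 and 189 in the ob/ob-Veh libraries and 59.5 and 36.5 in the ob/ob-Rosi libraries, Plat at 15.04 and 9.33 CPM with WT-Veh, 88.9 and 62.7 with ob/ob-Veh and 15.9 and 16.3 with ob/ob-Rosi and Ace at 8.59 and 8.09 CPM with WT-Veh, 198 and 100.1 with ob/ob-Veh and 29.5 and 35.3 with ob/ob-Rosi. The ob/ob-Veh libraries were high for each without overlap, although all 3 genes stood below the level of the other iWAT cells, at 0.919, 0.194 and 0.249 times it. Ace had an ob/ob effect of 3.78 ± 0.42 (SE, adjusted p = 0.00199), the 1 of those 113 iWAT ob/ob calls that held with each library left out. The ob/ob call was lost with cells thinned to 700 UMIs (adjusted p = 0.05 after rounding) and, on 1 ob/ob-Veh library, with members of 3 or more other-lineage UMIs left out (0.532). Ace had a Rosi effect of -1.83 ± 0.36 (SE, adjusted p = 0.0431), lost at 0.352 without ob/ob-Veh 1, 0.218 without ob/ob-Veh 2, 0.169 without ob/ob-Rosi 1 and 0.342 without ob/ob-Rosi 2. The ob/ob and Rosi effects were 1.75 ± 0.38 and -2.19 ± 0.38 for Thbd and 2.31 ± 0.42 and -1.90 ± 0.39 for Plat, all called (adjusted p = 0.0268 to 0.0472). All 4 were lost without ob/ob-Veh 1 (0.194 to 0.337) and without ob/ob-Veh 2 (0.201 to 0.226). In the other iWAT cells Ace was at 22.6 and 117 CPM in WT-Veh, 651 and 535 in ob/ob-Veh and 96.8 and 99.7 in ob/ob-Rosi. The 7 stromal markers were likewise highest in the ob/ob-Veh iWAT members without overlap, at 538 and 1376 CPM summed in WT-Veh, 2564 and 2714 in ob/ob-Veh and 1250 and 1722 in ob/ob-Rosi. Of 6 tested, Dpt was called higher in ob/ob-Veh and none with Rosi, and Pdgfra, which the gate used, was at 0. Their part in the differences of Thbd, Plat and Ace was not tested. The nitric oxide synthase Nos3 and the flow-responsive factor Klf2 were not called in any comparison.

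Cyp1a1 (chr9:57687928-57703824), a xenobiotic-metabolising enzyme induced through the aryl hydrocarbon receptor, was found mainly in ob/ob-Veh members. In iWAT it was at 0.716 and 1.24 CPM in the WT-Veh libraries, 116 and 136 in the ob/ob-Veh libraries and 0.582 and 0 in the ob/ob-Rosi libraries. Together the ob/ob-Veh libraries held 130 UMIs, against 3 with WT-Veh and 3 with ob/ob-Rosi, ratios of 133 (95% counting interval 44.7 to 655) and 344 (115 to 1688). Both iWAT calls (adjusted p = 0.000751 and 8.36e-05) were lost without ob/ob-Veh 2, at 0.136 to 0.189. In eWAT it was at 0 and 2.57 CPM in the WT-Veh libraries, 61.2 and 19.97 in the ob/ob-Veh libraries and 0 and 0 in the ob/ob-Rosi libraries, a ratio of 19.4 (5.12 to 165) for ob/ob-Veh to WT-Veh, lost at 0.142 without WT-Veh 1, 0.0770 without WT-Veh 2 and 0.199 without ob/ob-Veh 1. The eWAT ob/ob-Rosi libraries were both at 0, at least 19.4-fold lower than ob/ob-Veh by a floor of 3 UMIs over the group, and that call held with each library left out.

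Genes named by the size of their change in eWAT included macrophage and adipocyte genes. Trem2, a lipid receptor of macrophages, was at 304 and 313 CPM in the WT-Veh libraries, 11.3 and 6.39 in the ob/ob-Veh libraries and 246 and 339 in the ob/ob-Rosi libraries. Both ob/ob-Veh libraries were low, with an ob/ob effect of -5.33 ± 0.42 (SE, adjusted p = 6.97e-08) and a Rosi effect of 5.23 ± 0.41 (SE, adjusted p = 8.95e-08). Cfd, the adipocyte protease adipsin, was at 0 and 0 CPM with WT-Veh, 755 and 421 with ob/ob-Veh and 3.74 and 3.67 with ob/ob-Rosi. It was at least 214-fold higher in ob/ob-Veh than in WT-Veh, by a floor of 3 UMIs over the group, and its Rosi effect was -7.21 ± 0.48 (SE, adjusted p = 3.05e-08). The other genes named by size in the eWAT ob/ob effect were Sult1e1, Car3, Scd1 and Cidec, higher in ob/ob-Veh, and Atp6v0d2, Gpnmb, Lgals3 and Adam8, lower. In the eWAT Rosi effect they were Atp6v0d2, Tmem252, Gpnmb and Mmp12, higher with Rosi, and Sult1e1, Car3, Adipoq and Retn, lower. Trem2, Sult1e1, Mmp12 and the 4 genes lower in ob/ob-Veh stood below the level of the other cells, and Cfd, Car3, Cidec, Scd1, Adipoq, Retn and Tmem252 above it. The macrophage sum given above includes Trem2 and Gpnmb, and the adipocyte sum includes Cfd, Car3, Cidec, Adipoq and Retn. That the sums moved the same way is therefore no separate result, and the part of such RNA in these calls was not tested. The effect on Trem2 did not differ from that in the other cells by the test (-0.78 ± 0.42 (SE, adjusted p = 0.439)).

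Most ribosomal protein genes had differences below 0 in ob/ob-Veh and above 0 with Rosi, of which few passed. In eWAT 83 of 84 had an ob/ob difference below 0 (median -0.68), with 7 called lower, and 79 a Rosi difference above 0 (median 0.63), with 7 called higher. In iWAT the medians were -1.32, with 83 below 0 and 9 called lower, and 1.36, with 83 above 0 and 4 called higher. The medians over all genes lay between -0.06 and 0.03. Against WT-Veh the ob/ob-Rosi medians were -0.01 and 0.04, with 0 calls at the adjusted threshold and 1 and 0 genes at an unadjusted p under 0.05. All called genes of this list stood at or below the level of the other cells, for example Rpl12 at 0.569 and 0.543 times it. The other cells moved the same way, with medians over 85 genes of -0.63 and 0.53 in eWAT and -1.22 and 1.20 in iWAT for the ob/ob and Rosi effects.

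Between depots the members differed in few genes. Over the 3 groups, 22 of 9724 genes (0.226%) differed between iWAT and eWAT, 12 higher in iWAT and 10 in eWAT, and the count was 10 to 14 without eWAT WT-Veh 1 or 2, eWAT ob/ob-Veh 2, or iWAT ob/ob-Veh 1 or 2, and 36 without iWAT WT-Veh 2. The 1 gene past the size rule was Pi16, a peptidase inhibitor known from fibroblasts that stood below the level of the other cells, with a mean of 115 CPM in iWAT and 9.55 in eWAT and a log2 difference of 3.22 ± 0.30 (SE, adjusted p = 8.15e-05). Cd36, Rbp7, Fabp4, Cd300lg, Lpl and Pparg were not called. The ob/ob effect differed between depots for 1 gene, Car3, and the Rosi effect for 0 by edgeR, where an unadjusted p under 0.05 was reached by 163 genes upward and 123 downward and DESeq2 called 4. Without any 1 of eWAT WT-Veh 1, eWAT ob/ob-Veh 2 or the 2 iWAT ob/ob-Veh libraries the ob/ob count was 0, and it was 8 without iWAT WT-Veh 2.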

How the data were processed

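The 12 deposited matrices hold raw UMI counts per gene and barcode, made by the authors with Cell Ranger 3.0.2 on mm10 after bcl2fastq 2.19.1.403. Barcodes were filtered and members chosen as stated above. Members' counts were summed per library and tested per depot with edgeR 4.0.16 in R 4.3.3 (TMM, filterByExpr, glmQLFit, glmQLFTest; 3 groups of 2, sharing 1 spread). A joint fit of all 12 libraries tested depots. SE is the log2 difference divided by the square root of F. DESeq2 1.42.0, RLE scaling, no filter, thinning to 700 UMIs, a gate by Pecam1 with 2 of Cd36, Rbp7 and Cd300lg, a replicate block and leaving out each library were alternatives. The code was tested on simulated counts. Python 3.11.15, numpy 2.4.6, pandas 2.3.3, scipy 1.17.1 and matplotlib 3.10.9 were used. Positions came from GENCODE by Ensembl ID.

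Named genes were, per depot and effect and for the depot contrast, the 5 largest calls each way at 50 CPM or more in a group without overlap, a fixed panel of capillary genes, from each of 22 lists the 2 largest calls each way (or the smallest p), and the 10 genes with the highest ratio to other cells. Other named genes were chosen after their values were seen. Members and lists were chosen with earlier results of these data known. CPM in members depends on all other RNA in the same droplets. Where nothing says that libraries came from separate preparations, p-values measure at most the spread between these libraries. Those of members against other cells rest largely on a spread shared over genes. Some genes that the rule would name are not reported here.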

Additional observations from a re-analysis of the deposited data

Results flagged for a closer look

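The ob/ob effect on Car3, a carbonic anhydrase of adipocytes, differed between depots, as tested by the interaction of depot and group over all 12 libraries. The iWAT effect minus the eWAT effect was -3.888 ± 0.564 (SE, adjusted p = 0.0332, edgeR). In eWAT the members had 6.13 and 29.6 CPM in the WT-Veh libraries, 716 and 688 in the ob/ob-Veh libraries and 11.2 and 9.16 in the ob/ob-Rosi libraries, and in iWAT 153 and 110.1 CPM in the WT-Veh libraries, 321 and 379.8 in the ob/ob-Veh libraries and 42.3 and 64.0 in the ob/ob-Rosi libraries. The ob/ob-Veh libraries were highest in both depots, and the WT-Veh libraries of iWAT were higher than those of eWAT. The 7 adipocyte markers together, of which Car3 is 1, summed to 38.8 and 56.6 CPM in eWAT WT-Veh members and to 231 and 190 in iWAT WT-Veh members, and the part of adipocyte RNA in this difference was not tested. The count of genes with such a difference was 0 without eWAT WT-Veh 1, eWAT ob/ob-Veh 2 or either iWAT ob/ob-Veh library.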

How the results depend on the processing

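With 2 mice a group, many calls rested on single libraries. The low depth per member of iWAT WT-Veh 1 and the small number of members of iWAT ob/ob-Veh 1, 47, limit what those 2 libraries can show. Counts are given as eWAT ob/ob, Rosi and ob/ob-Rosi against WT-Veh, then iWAT in that order, beside 364, 251, 49, 176, 83 and 43. Without a filter on low counts they were 582, 459, 123, 779, 667 and 371. With cells thinned to 700 UMIs they were 61, 43, 9, 0, 3 and 4. DESeq2 gave 388, 344 and 82 in iWAT, with 263 of the 344 higher, and 255, 171 and 54 in eWAT. The second gate gave 424, 304, 48, 143, 67 and 40, and RLE scaling 360, 249, 52, 170, 82 and 42. With 1 library left out they ranged over 86 to 814, 167 to 818, 0 to 123, 1 to 373, 0 to 595 and 0 to 342.

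Replicate numbers were not used as pairs in the main fits. The correlation of deviations between same-numbered libraries was positive in every pair, though not always over 0.1. It was 0.07 to 0.17 in eWAT and 0.09 to 0.27 in iWAT. With a replicate block every count was higher, at 784, 606, 161, 717, 719 and 155, and all 470 named calls held. In each group replicate 2 had the higher median of Gpihbp1 UMIs per member, from 4 against 3 in iWAT ob/ob-Veh to 22 against 2 in iWAT WT-Veh. What same-numbered libraries share was not tested. Leaving out members with 3 or more UMIs of 12 other-lineage genes gave 19, 24, 2, 0, 2 and 19. It dropped eWAT WT-Veh 2 (8 members left) and iWAT ob/ob-Veh 1 (2), so those arms were 1 library each, of 30 and 38 members, assumed to vary like the other groups, and calls against those arms have no replicate there. The next 2 alternatives were added after the data were seen. Leaving out members with 2% or more of such UMIs gave 340, 225, 51, 183, 79 and 42. Keeping only genes above the level of the other cells left 164, 92, 45, 93, 41 and 38.

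For members against other cells (733, 900, 117 and 19), DESeq2 gave 327, 360, 187 and 54, no filter gave 500 and 243 in iWAT, and leaving out a library 314 to 641, 377 to 935, 0 to 999 and 0 to 390. For iWAT against eWAT (22) DESeq2 gave 43, no filter 153, thinning 10 and leaving out a library 10 to 36. For the depot difference of the ob/ob effect (1) they gave 4, 43, 0 and 0 to 8, and for that of the Rosi effect (0) 4, 28 and, with the second gate, 2, and 0 to 4 with a library left out. The causes were not tested.

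The share of members turned sign over the endothelial gate, at -0.849 points for eWAT ob/ob-Rosi minus WT-Veh, -9.14 for eWAT ob/ob-Veh minus WT-Veh and 9.35 for iWAT ob/ob-Veh minus WT-Veh, and with the second gate at -0.131 for eWAT ob/ob-Veh minus WT-Veh. The eWAT ob/ob effect of Hba-a1 ranged over -2.63 (without eWAT ob/ob-Veh 2) to 7.36 (without WT-Veh 1) and that of Hbb-bs over -1.87 to 9.39 for the same libraries. With 3 or more other-lineage UMIs left out, Lmna turned to 1.90 in the eWAT ob/ob effect, Hbb-bs to -4.12 in eWAT ob/ob-Rosi against WT-Veh, Cfd to 0.49 in the iWAT Rosi effect and Rgs5 to -0.51 in the iWAT ob/ob effect, each on an arm of 1 library. The 12 genes of that filter are Rgs5, Notch3, Cspg4, Dcn, Col1a1, Col3a1, Lyz2, C1qa, Tyrobp, Cd3e, Cd79a and Msln. It therefore removes members with Rgs5 UMIs by design, and the turn of Rgs5 is no separate result. Of the 470 named calls, DESeq2 kept 387 of 439, thinning 84 of 397 and the second gate 416 of 468.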

Other observations

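Insulin and adiponectin receptor genes of the members gave few calls. Of 10 tested genes in eWAT 0 were called in either effect, with 3 (ob/ob) and 2 (Rosi) at an unadjusted p under 0.05 by edgeR, and in iWAT the glucose transporter Slc2a1 was the 1 call of 11. Slc2a1 was at 43.7 and 74.0 CPM with WT-Veh, 0 and 9.64 with ob/ob-Veh and 18.0 and 19.4 with ob/ob-Rosi in iWAT, with ob/ob-Veh lowest, and its ob/ob effect was -3.12 ± 0.57 (SE, adjusted p = 0.0271), with adjusted p of 0.194 without ob/ob-Veh 1, 0.201 without ob/ob-Veh 2, 0.0660 without ob/ob-Rosi 1 and 0.0586 without ob/ob-Rosi 2. The insulin receptor Insr was at 78.0 and 42.9 CPM with WT-Veh, 253 and 145 with ob/ob-Veh and 79.3 and 43.8 with ob/ob-Rosi there, with ob/ob-Veh highest and 1.38 ± 0.43 (SE, adjusted p = 0.120).

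In eWAT the heat shock genes Hspa1a and Hspa1b were higher in ob/ob-Veh, 2 of 23 tested genes of the stress list, and 2 were lower with Rosi, all below the level of the other cells. In iWAT 0 of 23 were called in either effect, 21 stood below 0 in ob/ob-Veh (median -0.45, 6 at an unadjusted p under 0.05 by edgeR) and 19 above 0 with Rosi (median 0.53, 8). In the other iWAT cells 15 of those 23 genes stood above 0 in ob/ob-Veh (median 0.35) and 10 did with Rosi (median -0.12). In the members, mitochondrially encoded genes had 3 of 13 higher in eWAT ob/ob-Veh (median log2 difference 0.81) and 0 called in iWAT (median -0.30, 0 at an unadjusted p under 0.05 by edgeR). The members' median mitochondrial share was 4.27 and 6.75% in the eWAT ob/ob-Veh libraries, 2.73 and 3.27% with WT-Veh and 3.32 and 3.84% with ob/ob-Rosi. Of nuclear genes of oxidative phosphorylation, Atp5g1 was the 1 lower of 76 in eWAT ob/ob-Veh and of 78 in iWAT, and it was higher with Rosi in iWAT, at 0.719 and 0.837 times the level of the other cells. Most of the list stood on 1 side of 0, with 72 of 76 genes below it in eWAT ob/ob-Veh (median log2 difference -0.44, 14 at an unadjusted p under 0.05) and 75 of 78 in iWAT (median -0.87, 48). With Rosi 63 of 76 stood above it in eWAT (median 0.28, 15) and 73 of 78 in iWAT (median 0.93, 53). The other cells moved the same way and further, with ob/ob and Rosi medians of -0.84 and 0.81 in eWAT and -1.09 and 1.32 in iWAT. Of all genes tested, 50.8% stood above 0 in the eWAT ob/ob effect and 48.4% in the Rosi effect, and 46.65 and 51.6% in iWAT.

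In iWAT the prostaglandin transporter Slco2a1 was at 8.59 and 5.6 CPM in the WT-Veh libraries, 137 and 45.8 in the ob/ob-Veh libraries and 6.398 and 5.04 in the ob/ob-Rosi libraries, with ob/ob-Veh highest. Its ob/ob effect was 3.20 ± 0.57 (SE, adjusted p = 0.0265), lost at 0.200 without ob/ob-Veh 1, 0.156 without ob/ob-Veh 2 and 0.0531 without ob/ob-Rosi 1, and its Rosi effect -3.47 ± 0.54 (SE, adjusted p = 0.0251), lost at 0.255 without ob/ob-Veh 1, 0.136 without ob/ob-Veh 2, 0.142 without ob/ob-Rosi 1 and 0.312 without ob/ob-Rosi 2. The haemoglobin genes Hba-a1 and Hbb-bs summed to 6.80 and 5114 CPM in the 2 eWAT ob/ob-Veh libraries.

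Other lists gave few calls among the members. Of 12 lipid droplet genes, 1 was higher and 3 lower in eWAT ob/ob-Veh, 1 was higher and 1 lower with Rosi there, and in iWAT 2 were lower in ob/ob-Veh, Pnpla2 and Plin2, and 0 were called with Rosi, with 4 at an unadjusted p under 0.05 by edgeR. Of 10 cholesterol and fatty acid synthesis genes in eWAT, 2 were higher and 1 lower in ob/ob-Veh and 1, Scd1, was lower with Rosi. In iWAT 0 of 16 were called in either effect, with 1 and 3 at an unadjusted p under 0.05. Of 20 basement membrane and integrin genes, Itga1 was higher in ob/ob-Veh in both depots, Igfbp7 was higher with Rosi in eWAT, and Fn1, at 0.112 times the level of the other cells, was higher in iWAT ob/ob-Veh and lower with Rosi. The stromal markers of the iWAT members, summed to 2564 and 2714 CPM in ob/ob-Veh, 538 and 1376 in WT-Veh and 1250 and 1722 in ob/ob-Rosi, were likewise highest in ob/ob-Veh without overlap, and their part in the Fn1 difference was not tested.

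Of 18 hypoxia and glycolysis genes in eWAT, Pfkfb3 was higher in ob/ob-Veh and Pkm, below the level of the other cells, higher with Rosi, and in iWAT Slc2a1 and Gapdh were the 2 of 19 lower in ob/ob-Veh. Pfkfb3 differed in sign from most of its list, of which 14 of 18 stood below 0 in eWAT ob/ob-Veh (median log2 difference -0.69, 10 at an unadjusted p under 0.05) and 16 of 19 in iWAT (median -0.84, 12). With Rosi 15 of 18 stood above 0 in eWAT (median 0.42, 2) and 15 of 19 in iWAT (median 0.47, 5). The other cells moved the same way, with ob/ob and Rosi medians of -0.28 and 0.78 in eWAT and -0.82 and 0.68 in iWAT. Of 18 TGF-beta and BMP genes, Bmp6 was higher in eWAT ob/ob-Veh and 0 were called in the eWAT Rosi effect or either iWAT effect, with 4, 5 and 4 at an unadjusted p under 0.05 in the Rosi, iWAT ob/ob and iWAT Rosi effects. Over all genes that level was reached by 1389 of 8572, 1906 of 10290 and 1782 of 10290. Of 9 MHC genes 0 were called in any of these 4 comparisons, with 2 to 4 at an unadjusted p under 0.05. Of 13 cell cycle genes in eWAT, Stmn1, below the level of the other cells, was lower in ob/ob-Veh and higher with Rosi, and 0 of 12 were called in iWAT, with 1 at an unadjusted p under 0.05 in each effect. The median of the cell cycle list was -1.13 in the eWAT ob/ob effect and 0.83 in the Rosi effect, against -1.81 and 1.53 in the other cells. Of 16 metallothionein and antioxidant genes, Gpx3, at 0.160 times the level of the other cells, was higher in iWAT ob/ob-Veh and 0 were called in the other 3 comparisons, with 5 to 6 at an unadjusted p under 0.05. Gpx3 differed in sign from most of its list, whose median was -0.57 in both ob/ob effects and 0.47 and 0.55 in the eWAT and iWAT Rosi effects. In the other cells the medians were -0.65 and -0.56 for ob/ob and 0.78 and 0.80 for Rosi.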
